A study of Mus musculus with 4 samples.

Results

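The CD3 chains and the small signalling adaptors related to them were described in TS2 and TS1, a pair of mouse cell lines. The genes were listed by name, with earlier results of these data known: Cd3d, Cd3e, Cd3g, Cd247, Fcer1g, Tyrobp, Hcst and Ms4a2. All 8 had 1 probe set each that names no other gene, among 19938 genes measured in this way, so no choice between probe sets arose. The labels describe both lines as derived from CD4+ T lymphocytes, untreated and grown with murine interleukin-9, a T cell growth factor. The labels name no genotype, strain or clone. Each line was measured on 2 Affymetrix arrays, 1 for each biological duplicate, A and B. Values are log2 of the deposited intensity. Differences are TS2 minus TS1, and adjusted p-values come from limma with Benjamini-Hochberg adjustment over all 19938 genes, called under 0.05. With 2 arrays against 2, an exact two-sided permutation test cannot go below 0.333, so single genes rest on the variance that limma shares between genes. Nothing in the labels says that the duplicates were grown from separate cultures, and the p-values measure only the spread between these arrays. In bulk RNA, fewer cells that express a gene and less RNA in each cell cannot be told apart.

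Receptors of immune cells often have no signalling part of their own. They pair in the membrane with short chains whose cytoplasmic tails carry an immunoreceptor tyrosine-based activation motif (ITAM). Kinases of the Src family phosphorylate the paired tyrosines of this motif, and Zap70 or Syk then dock on them. In T cells the T cell receptor uses the CD3 gamma, delta and epsilon chains and the zeta chain encoded by Cd247. Natural killer cells, mast cells and myeloid cells use the Fc receptor gamma chain (Fcer1g) and DAP12 (Tyrobp). DAP10 (Hcst) has a different motif, which recruits phosphatidylinositol 3-kinase, and Ms4a2 is the beta chain of the high-affinity IgE receptor.

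The 8 genes did not move together. Cd3e and Cd247 were higher in TS2, Fcer1g and Tyrobp were lower in TS2, and Cd3g, Cd3d, Hcst and Ms4a2 did not pass the test. The 4 genes called of 8 stand beside 13.5% of all genes called, 5.05% higher and 8.45% lower in TS2. For 6 of the 8 genes, TS2 and TS1 arrays had no overlap, beside 58.4% of all genes. The median absolute difference was 1.07 over the 8 genes and 0.163 over all genes, and the median signed difference was 0.21 against 0.013. The lines' labels were checked against T cell markers. Of 15 such markers, 11 lay below a log2 intensity of 6.5 on all 4 arrays, among them Cd4, at 5.15 and 5.28 on the TS2 arrays and 5.38 and 5.36 on the TS1 arrays. This level is near the median of all probe sets, 6.47 to 6.53 on the 4 arrays, so it does not mark a gene as absent. The deposited processing leaves no gene at 0, and signal over background was not measured here. Probe sets whose mean over the arrays was below 5.36, the dimmest 30%, are called dim below. Levels of different genes come from different probes and are not compared with each other.

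**Figure D1:**
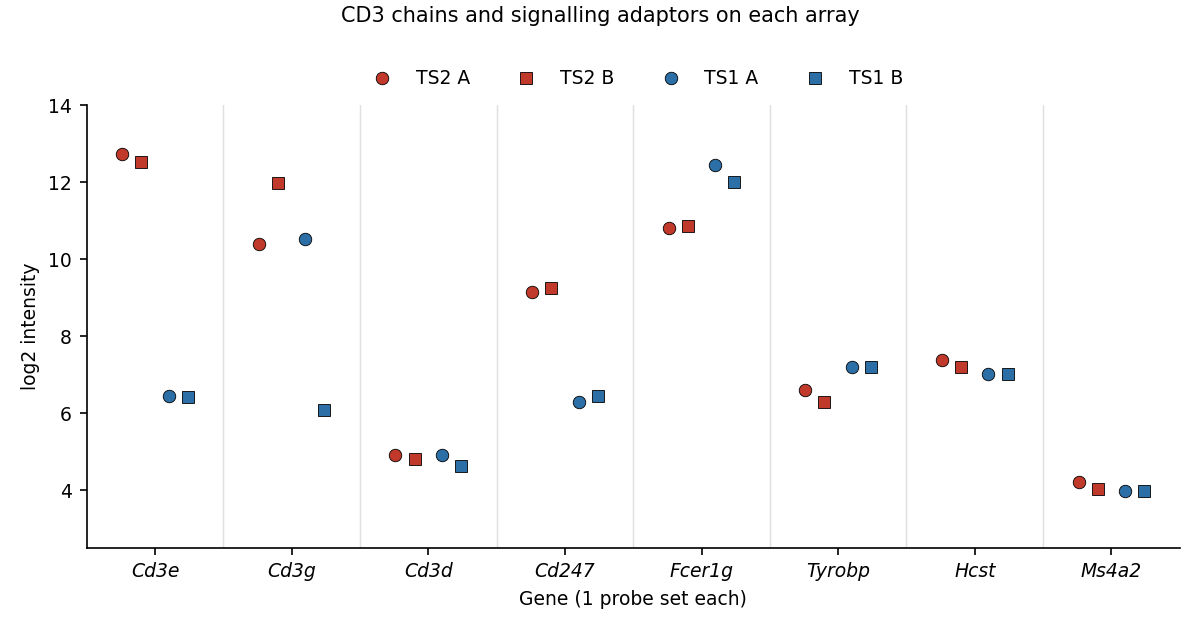
Log2 intensity of the 8 genes on each of the 4 arrays, TS2 in red and TS1 in blue, duplicate A as circles and duplicate B as squares. Cd3e and Cd247 have both TS2 arrays above both TS1 arrays, Fcer1g and Tyrobp have them below, and the TS1 arrays of Cd3g lie at 10.52 and 6.07.

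Cd3g, Cd3d and Cd3e lie next to each other on mouse chromosome 9, with 1337 bases between Cd3g and Cd3d and 11682 between Cd3d and Cd3e in RefSeq's GRCm38.p6 annotation, and no other annotated gene lying wholly between them. Cd3g and Cd3d face away from each other, and Cd3e runs in the direction of Cd3g. Because these 3 neighbours behaved so differently, their promoter windows are shown, from 250 bases before to 50 after the start of the gene, credited to RefSeq, build GRCm38.p6. The windows are chr9:44980382-44980681 on the minus strand for Cd3g, chr9:44981536-44981835 on the plus strand for Cd3d, and chr9:45009562-45009861 on the minus strand for Cd3e. They were picked after the values were seen. Capitals mark every match, on either strand, to the ETS core GGAA, the GATA motif AGATAA, the RUNX motif TGNGGT, the E-box CANNTG or the TATA box TATAAA, and adjoining matches run together.
Cd3g: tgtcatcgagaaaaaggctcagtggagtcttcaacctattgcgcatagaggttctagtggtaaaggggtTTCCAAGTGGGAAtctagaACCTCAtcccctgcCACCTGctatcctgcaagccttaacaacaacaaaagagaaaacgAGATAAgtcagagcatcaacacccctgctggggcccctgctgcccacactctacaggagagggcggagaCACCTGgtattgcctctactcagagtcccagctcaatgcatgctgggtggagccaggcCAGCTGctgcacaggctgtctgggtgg
Cd3d: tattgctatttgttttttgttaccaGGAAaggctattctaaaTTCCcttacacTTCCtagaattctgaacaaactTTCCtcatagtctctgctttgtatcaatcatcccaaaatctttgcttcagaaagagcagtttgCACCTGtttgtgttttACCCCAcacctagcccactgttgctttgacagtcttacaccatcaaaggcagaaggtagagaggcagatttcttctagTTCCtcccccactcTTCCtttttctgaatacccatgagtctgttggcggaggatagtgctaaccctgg
Cd3e: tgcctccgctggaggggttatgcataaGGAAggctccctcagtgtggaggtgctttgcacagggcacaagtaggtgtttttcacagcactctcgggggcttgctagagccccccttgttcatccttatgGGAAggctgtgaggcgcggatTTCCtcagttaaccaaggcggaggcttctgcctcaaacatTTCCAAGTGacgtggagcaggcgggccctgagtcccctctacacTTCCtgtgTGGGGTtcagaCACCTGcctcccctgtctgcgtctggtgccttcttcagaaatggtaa

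The Cd3e window held 5 matches to the ETS core, 2 E-boxes and 1 RUNX match. The Cd3d window held 6, 1 and 1 of these, and the Cd3g window held 2, 4 and 1. AGATAA matched once in the Cd3g window and in neither of the other CD3 windows, and TATAAA matched in none of the 3. Most of these matches are common: of 32851 mouse promoter windows of this length, 96.0% held the ETS core, 72.3% an E-box, 45.8% the RUNX motif, 13.6% TATAAA and 11.2% AGATAA. A match describes the letters and is no evidence of binding.

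Cd3e, the chain that pairs with both CD3 gamma and CD3 delta in the receptor, showed the widest difference of the 8 genes. Probe set 10593024 read 12.74 and 12.53 in TS2, against 6.45 and 6.41 in TS1. Both TS2 arrays were therefore far above both TS1 arrays, and the duplicates of each line lay close together. In linear intensity this is 6847 and 5930 in TS2 and 87.2 and 84.9 in TS1. The difference of 6.21 (SE 0.108, 95% interval 5.93 to 6.49, adjusted p = 9.39e-05) corresponds to 74.0-fold. Over all genes, 5 had a larger absolute difference.

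Cd247 encodes the zeta chain, which carries several of the motifs. Its gene lies on chromosome 1. Probe set 10351353 read 9.15 and 9.25 in TS2 and 6.29 and 6.44 in TS1. The groups did not overlap, and every TS2 array exceeded every TS1 array by 2.71 to 2.95. The difference was 2.83 (SE 0.101, 95% interval 2.57 to 3.09, adjusted p = 0.000401), or 7.11-fold, and 199 genes had a larger absolute difference.

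Cd3d encodes the delta chain. It read 4.92 and 4.80 in TS2, against 4.92 and 4.63 in TS1, dim on every array. The groups overlapped. The difference was 0.086 (SE 0.131, 95% interval -0.25 to 0.42, adjusted p = 0.728), which leaves room for a change of up to 0.42 in favour of TS2. Its sign turned without TS1 B, to -0.061. At this brightness a lower level in one line may not be visible, so the values do not show whether the gene is transcribed in either line.

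Cd3g, the gamma chain, has to be read array by array. Probe set 10593015 read 10.39 and 11.98 in TS2 A and B, against 10.52 in TS1 A and 6.07 in TS1 B. The TS1 A array lay inside the range of the TS2 arrays, whereas TS1 B lay far below all 3. In linear intensity TS2 A and B had 1338 and 4050, and TS1 A and B had 1465 and 67.0.

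The gap between the TS1 duplicates was 4.45 on the log2 scale, or 21.9-fold. Of the 19938 genes, 0 had a larger gap in TS1. The next was Far2, a fatty acyl-CoA reductase named after its values were seen, which was 4.02 brighter on TS1 B. Of the 15 genes with the widest TS1 gaps, 12 were brighter on TS1 A, as Cd3g was, and 3 on TS1 B. The median absolute gap over all genes was 0.13 in TS1, and 1% of genes exceeded 1.04. In TS2 the Cd3g duplicates were also apart, by 1.60 with B brighter (3.03-fold), and 50 genes had a larger gap there. The median gap in TS2 was 0.11 and its 99th percentile 0.82.

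The mean difference of Cd3g between the lines was 2.89 with an SE of 1.49 and a 95% interval of -0.94 to 6.73 (adjusted p = 0.281). The single array comparisons ran from -0.13 (TS2 A minus TS1 A) over 1.47 (TS2 B minus TS1 A) and 4.32 (TS2 A minus TS1 B) to 5.92 (TS2 B minus TS1 B). Without TS1 A the difference was 5.12 and passed (adjusted p = 0.027), and without TS1 B it was 0.67 (adjusted p = 0.604). A mean of the TS1 arrays describes neither of them.

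The other CD3 genes showed no split as wide as that of Cd3g. TS1 B minus TS1 A was -0.039 for Cd3e, 0.15 for Cd247 and -0.29 for Cd3d. Their intensities on TS1 A, 87.2, 78.4 and 30.3, were already below the median of that array, 89.0, whereas Cd3g had 1465. A drop as wide as that of Cd3g could therefore hardly show in them. Other genes did split in the same direction: of the 221 genes at least 2-fold apart between the TS1 arrays (1.11% of all genes), 145 were brighter on TS1 A and 76 on TS1 B.

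**Figure D2:**
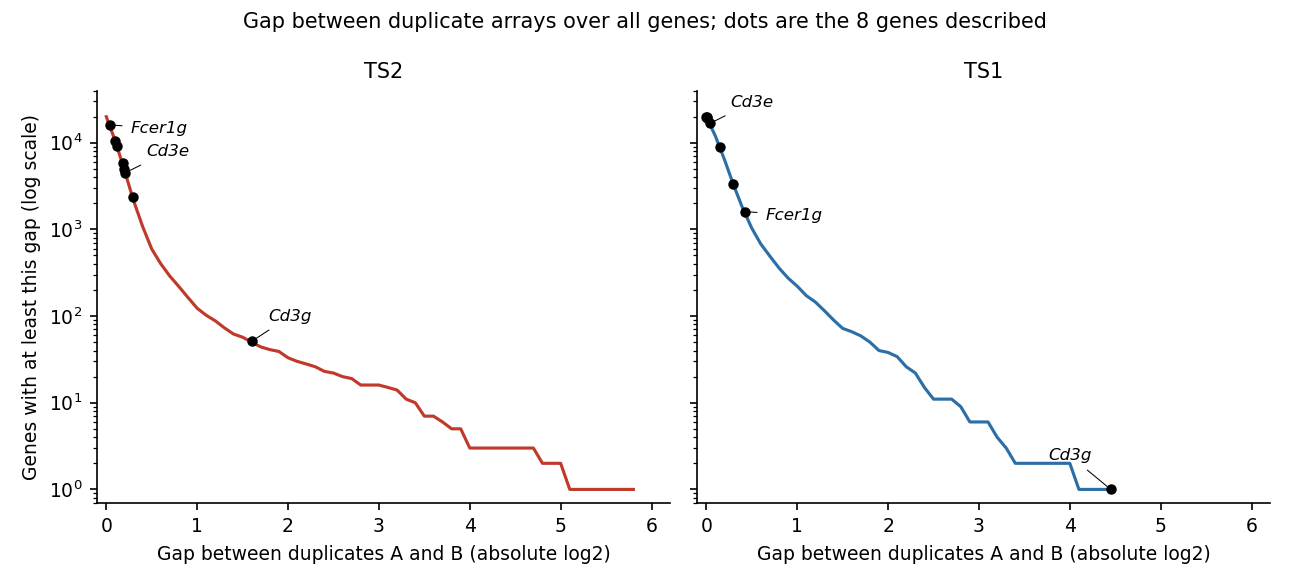
Number of genes (log scale) whose duplicates A and B lay at least a given absolute log2 distance apart, in TS2 (left, red) and TS1 (right, blue); black dots are the 8 genes, 3 of them labelled. Cd3g ends the TS1 curve at 4.45 and lies at 1.60 in TS2, while Cd3e stays at 0.21 in TS2 and 0.039 in TS1.

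The genes around the cluster on chromosome 9 did not differ in step with Cd3e. The 3 measured genes before it, Kmt2a, a histone methyltransferase, Atp5l, a subunit of ATP synthase, and Ube4a, a ubiquitin ligase, differed by -0.068, -0.095 and -0.12. The number of the Atp5l probe set, 10380821, lies far from those of Kmt2a (10592942) and Ube4a (10592988). Whether it reads this locus was not checked. The 3 measured genes after it, Mpzl2, Mpzl3 and Jaml, which encode membrane proteins of the immunoglobulin superfamily, differed by 0.084, 0.14 and -0.037. None of these 6 passed (adjusted p between 0.452 for Ube4a and 0.846 for Jaml). Cd3e itself rose 74.0-fold beside them, and Cd3d, between Cd3g and Cd3e, did not pass.

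**Figure D3:**
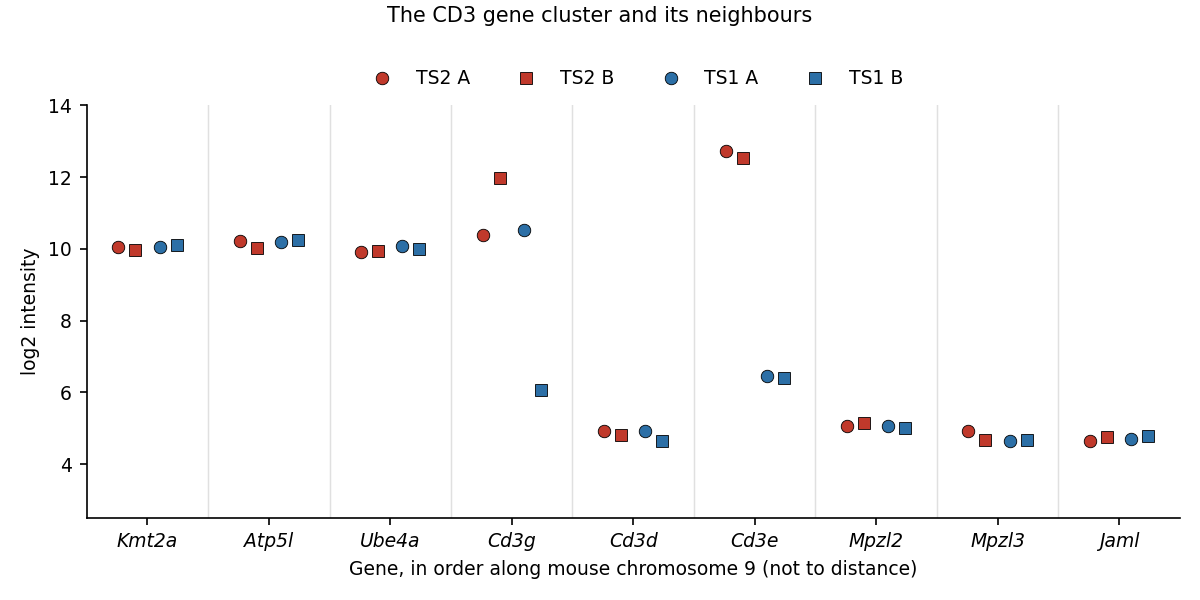
Log2 intensity on each array of the CD3 genes and the 3 measured genes on either side, in their order along mouse chromosome 9 and not to distance. Cd3e separates TS2 (red) from TS1 (blue), TS1 B of Cd3g stands at 6.07 below the other 3 arrays, and the 6 flanking genes and Cd3d have the 4 arrays close together.

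Fcer1g, the common gamma chain of Fc receptors, was lower in TS2. Probe set 10360070 read 10.82 and 10.86 in TS2, against 12.44 and 12.02 in TS1. Both TS2 arrays lay below both TS1 arrays, and the intensity was far above the dim range in either line, at 1812 and 1859 in TS2 and 5545 and 4156 in TS1. The difference was -1.39 (SE 0.157, 95% interval -1.79 to -0.99, adjusted p = 0.00832), a 2.62-fold lower level. The call held whichever array was left out, with differences of -1.60 to -1.18, although without TS2 A the adjusted p was 0.0491.

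Tyrobp encodes DAP12, which pairs with activating receptors of natural killer and myeloid cells. Probe set 10551883 read 6.59 and 6.30 in TS2 and 7.19 and 7.20 in TS1, with no overlap. It was lower in TS2 by -0.75 (SE 0.124, 95% interval -1.07 to -0.43, adjusted p = 0.0229), or 1.68-fold. The call held without TS2 A (adjusted p = 0.0412). It ended when TS1 A (adjusted p = 0.0676), TS2 B (adjusted p = 0.0921) or TS1 B (adjusted p = 0.0793) was dropped, with differences of -0.89 to -0.60 over the arrays left out.

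Hcst, the DAP10 gene, lies 129 bases from Tyrobp on chromosome 7 in the same annotation. It read 7.38 and 7.19 in TS2, against 7.02 and 7.01 in TS1. Its TS2 arrays lay above its TS1 arrays, the opposite order to that of Tyrobp. The difference of 0.27 (SE 0.105, 95% interval 0.0046 to 0.54) did not pass after adjustment (adjusted p = 0.164). Ms4a2, on chromosome 19, was dim on every array, at 4.22 and 4.04 in TS2 and 3.99 and 3.99 in TS1. Its difference was 0.14 (SE 0.101, 95% interval -0.12 to 0.40, adjusted p = 0.428).

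The Hcst window is shown because Hcst and Tyrobp are the only pair of these genes that lie within 1 kb of each other. It is chr7:30419805-30420104 on the minus strand, RefSeq build GRCm38.p6, with capitals as before.
Hcst: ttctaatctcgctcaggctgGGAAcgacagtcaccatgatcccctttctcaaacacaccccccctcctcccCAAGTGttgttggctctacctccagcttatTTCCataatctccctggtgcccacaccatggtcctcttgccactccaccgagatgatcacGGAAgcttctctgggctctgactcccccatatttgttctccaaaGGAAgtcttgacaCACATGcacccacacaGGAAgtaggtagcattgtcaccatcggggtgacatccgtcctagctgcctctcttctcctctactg
It held 5 matches to the ETS core, 2 E-boxes and no match to the other 3 motifs. Of the 8 genes, 7 had a window in the RefSeq table, all but Tyrobp. The Fcer1g window held 7 matches to the ETS core, 1 to the RUNX motif and 2 E-boxes, and the Cd247 window held 2, 2 and 2. The Ms4a2 window held 2, 1 and 0 of these, and 3 matches to AGATAA, a motif found in 11.2% of windows.

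**Figure D4:**
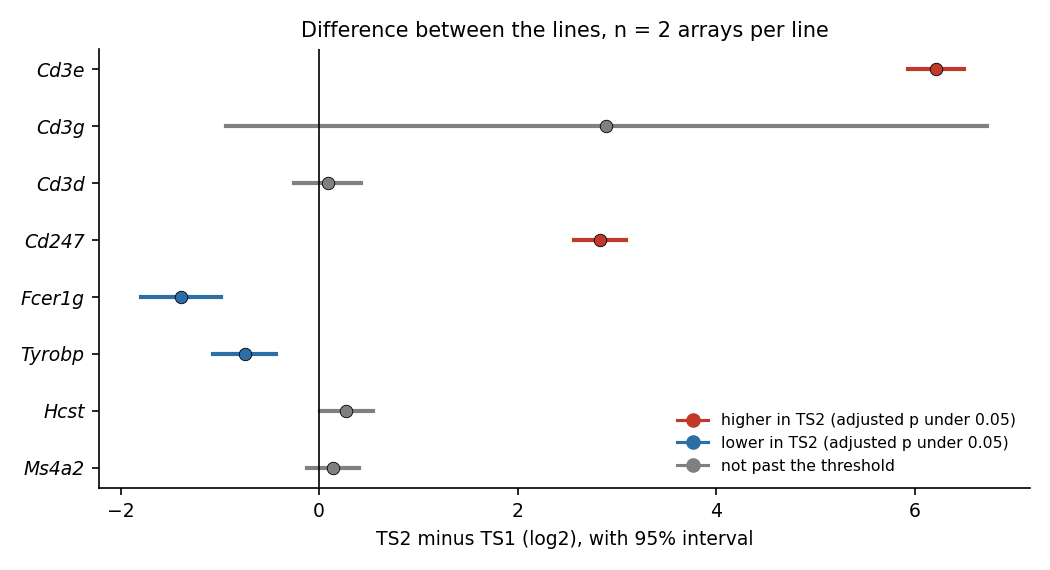
Difference TS2 minus TS1 on the log2 scale (points) with the 95% interval of limma (bars), n = 2 arrays per line; red is higher and blue lower in TS2, grey did not pass. Cd3e lies at 6.21 and Cd247 at 2.83, Fcer1g at -1.39 and Tyrobp at -0.75, and the Cd3g bar reaches from -0.94 to 6.73.

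Around the other genes the neighbours were mixed. Over all 8 genes, the 3 nearest measured genes on each side gave 30 different genes, of which 4 were higher and 2 lower in TS2 (20% called, beside 13.5% of all genes). Before Cd247 lay Rcsd1, which encodes an actin-capping regulator and was higher by 3.42 (adjusted p = 0.0013), and Mpzl1, a membrane glycoprotein gene higher by 0.99 (adjusted p = 0.00657). Creg1, between Rcsd1 and Cd247, differed by 0.041 (adjusted p = 0.907). Next to Tyrobp and Hcst, Nfkbid, an inhibitor of NF-kappa-B, was higher by 0.54 (adjusted p = 0.0222) and Sdhaf1, an assembly factor of succinate dehydrogenase, differed by -0.46 (adjusted p = 0.0371). Syne4, 3 measured genes away, was 6.04-fold lower in TS2 (adjusted p = 0.000883). Near Fcer1g, Tomm40l was higher by 0.51 (adjusted p = 0.0251). The calls of Nfkbid, Sdhaf1 and Tomm40l were lost whichever array was left out and with A and B entered as a replicate block (adjusted p of 0.061, 0.0879 and 0.0647), and that of Sdhaf1 also after renewed quantile normalization (adjusted p = 0.0779).

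The receptors that pair with these adaptors were examined next. Of 40 listed, 32 were measured, of which 5 were higher and 0 lower in TS2 by limma, and 27 did not pass. This share of 15.6% is close to the 13.5% of all genes. The median difference was 0.15, against 0.013 over all genes, and 18 of the 32 were dim in both lines. Cd200r4, a CD200 receptor relative that pairs with DAP12, read 9.69 and 10.02 in TS2 and 3.34 and 4.32 in TS1 (difference 6.02, SE 0.337, adjusted p = 0.00113). It has close paralogs, so part of its signal is uncertain. Klrk1, the NKG2D receptor, which uses DAP10 and in mice also DAP12, read 8.76 and 9.19 in TS2 and 4.31 and 4.49 in TS1 (difference 4.58, adjusted p = 0.000405). Both were far above TS1 on both TS2 arrays, whereas Tyrobp was lower in TS2 and Hcst did not pass.

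The other 3 receptors called were Klrc2, Ncr1 and Fcgr3. Klrc2, an activating lectin-like receptor that pairs with DAP12, was higher by 1.87 (adjusted p = 0.0129). Ncr1, the natural cytotoxicity receptor NKp46, pairs with the Fc receptor gamma chain and the zeta chain and was higher by 1.42 (adjusted p = 0.0155). Fcgr3, a low-affinity IgG receptor that uses the Fc receptor gamma chain, read 10.57 and 10.20 in TS2 and 9.66 and 9.11 in TS1, a difference of 1.0 (SE 0.224, adjusted p = 0.0494). Without TS1 B the calls of Klrc2 (adjusted p = 0.0573), Ncr1 (adjusted p = 0.067) and Fcgr3 (adjusted p = 0.111) were lost, and 2 of the 5 receptors passed. Fcgr3 also missed the threshold when TS2 A (adjusted p = 0.199) or TS2 B (adjusted p = 0.0968) was dropped.

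Fcer1a, the chain of the high-affinity IgE receptor that binds IgE, read 13.00 and 13.08 in TS2 and 12.69 and 12.91 in TS1. Its partner Fcer1g was also well above the dim range in both lines, and the third chain of that receptor, Ms4a2, was dim in both. The difference of Fcer1a was 0.24 (SE 0.112, adjusted p = 0.240). Tarm1, another receptor that uses the Fc receptor gamma chain, named after its values were seen, read 11.84 and 12.09 in TS2 and 11.55 and 11.85 in TS1 (adjusted p = 0.338). Its arrays overlapped. Other proteins that carry the motif, or its single-tyrosine form (hemITAM), in their own chain were not called. Of Cd79a, Cd79b, Clec7a, Clec1b and Clec9a, 0 passed with limma and 0 under any alternative tried. Cd79a read 3.73 and 4.24 in TS2 and 4.10 and 4.00 in TS1.

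The next list, called kinases and phosphatases for short, holds genes that act at the motif. It also includes adaptors, such as Sla and Pag1, and the ubiquitin ligases Cbl and Cblb. Of its 26 measured genes, 7 were higher and 3 lower in TS2, with a median difference of -0.064. The share called was 38.5%, beside 13.5% of all genes. Leaving out TS2 A reduced the 10 calls to 6, and leaving out TS2 B reduced them to 5. Zap70, the kinase that docks on phosphorylated CD3 and zeta chains, read 10.85 and 10.83 in TS2 and 8.36 and 8.77 in TS1 (difference 2.27, SE 0.154, adjusted p = 0.00195). Syk, its relative in B cells, mast cells and myeloid cells, read 5.29 and 5.37 in TS2 and 5.23 and 5.30 in TS1 (difference 0.068, adjusted p = 0.690). The 2 relatives therefore differed in pattern, with Zap70 separating the lines and Syk in the dim range in both.

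Among the Src family, Fyn read 9.57 and 9.01 in TS2 and 9.22 and 9.57 in TS1 (difference -0.11, adjusted p = 0.815), and its arrays overlapped. Src itself, named after its values were seen, was lower in TS2. It read 7.53 and 7.59 in TS2 and 8.32 and 8.03 in TS1 (difference -0.61, adjusted p = 0.0396). Fgr, Blk and Yes1 were measured and not called. Lck and Lyn are not analysed here. Ptprc, the phosphatase CD45, which keeps Src family kinases ready to act, was higher in TS2 by 6.04. Txk, a kinase of the Tec family, was higher by 3.53 (adjusted p = 0.00144). Sla, an adaptor that lowers receptor levels, was higher by 4.60 and Ubash3a, a phosphatase family member that dampens T cell receptor signals, by 2.35. The call of Sla (adjusted p = 0.0203) ended when TS2 A (adjusted p = 0.0906) or TS2 B (adjusted p = 0.0845) was left out, and under the outlier-robust prior (adjusted p = 0.0629). That of Ubash3a (adjusted p = 0.0358) ended without TS2 A, TS1 A or TS1 B (adjusted p of 0.102, 0.102 and 0.0582), under the outlier-robust prior (adjusted p = 0.0643) and with A and B entered as a replicate block (adjusted p = 0.087).

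Below the kinases the direction was mixed. Of 34 measured adaptors and effectors, 3 were higher and 9 lower in TS2 (35.3% called, beside 13.5% of all genes), with a median difference of -0.094. Leaving out either TS2 array gave 3 higher and 3 lower, and the replicate block gave 3 higher and 5 lower. Lat, the membrane scaffold that Zap70 phosphorylates, read 7.15 and 6.72 in TS2 and 8.88 and 9.10 in TS1 (difference -2.05, SE 0.174, adjusted p = 0.00353). Lcp2, the SLP-76 adaptor that joins Lat, read 11.93 and 12.30 in TS2 and 11.81 and 11.93 in TS1 (adjusted p = 0.360). Clnk, a relative of SLP-76, read 11.40 and 11.73 in TS2 and 5.59 and 5.33 in TS1 (difference 6.11, SE 0.159, adjusted p = 0.000214). Rasgrp1, which activates Ras, was higher by 4.15 (adjusted p = 0.000405), and Sh2d2a, a T cell adaptor, by 3.57 (adjusted p = 0.00197).

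**Figure D5:**
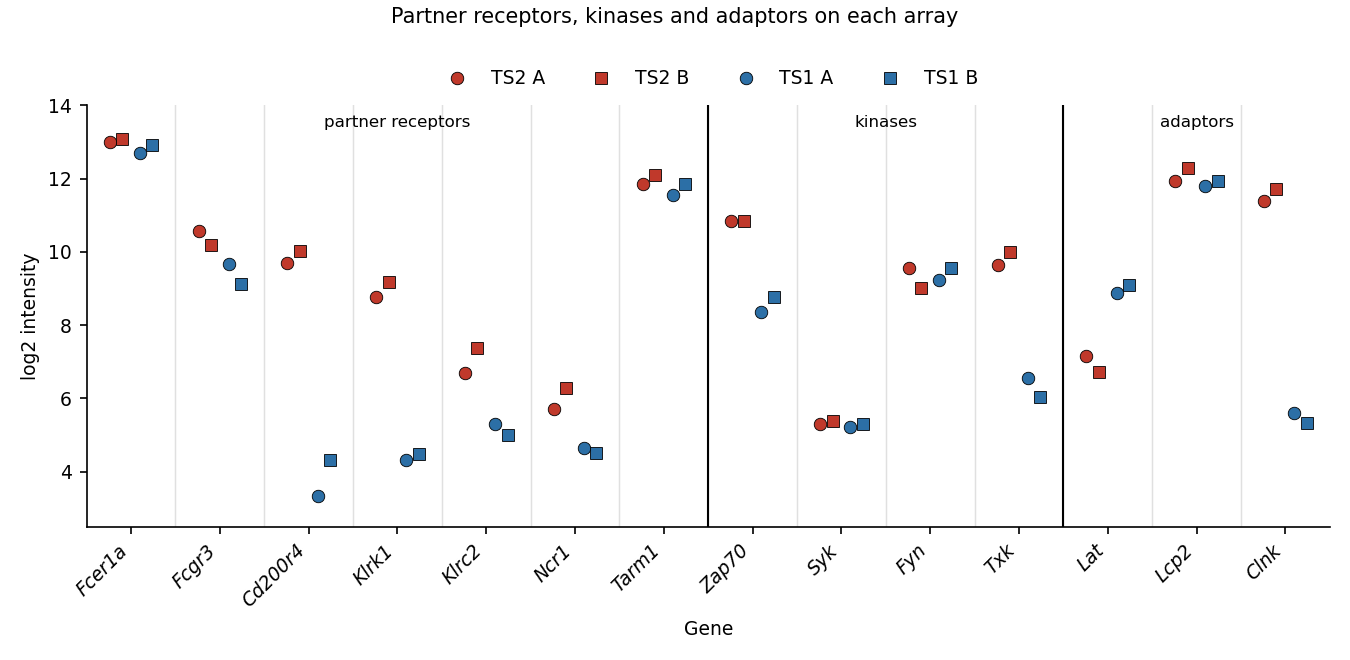
Log2 intensity on each array of receptors that pair with the adaptors, kinases and downstream adaptors, TS2 in red and TS1 in blue. Cd200r4, Klrk1, Zap70, Txk and Clnk have both TS2 arrays well above both TS1 arrays, Lat has them below, and Fcer1a, Tarm1, Syk, Fyn and Lcp2 have the lines close together.

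Of 17 measured transcription factors and regulators of T cell development, 4 were higher and 1 was lower in TS2 (29.4% called, beside 13.5% of all genes). Gata3 was higher by 3.30 (adjusted p = 0.000343), the Ikaros relative Ikzf3 by 3.43 and the receptor Notch1 by 1.57 (adjusted p = 0.00748). Runx1 was lower, with a difference of -1.66 (adjusted p = 0.00775). The fifth was Cbfb, the partner of Runx proteins, named after its values were seen, which was higher by 0.47 (adjusted p = 0.0463). Leaving out any of the 4 arrays ended the Cbfb call, as did the replicate block (adjusted p = 0.0996). Bcl11b, a regulator of T cell commitment also chosen with its values known, differed by 0.14 (adjusted p = 0.516).

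Genes whose pattern over the 4 arrays was most like that of a called gene were found by Euclidean distance between mean-centred log2 values. Symbols of predicted, clone-named, olfactory, vomeronasal and small RNA genes, and all symbols beginning with Rn, were left out of this search. Nearest to Cd3e were Ptprc (distance 0.18), Fundc2, a mitochondrial membrane protein gene (0.30), and Clnk (0.43). Nearest to Cd247 were Insl6, an insulin-like peptide gene (0.27), Ffar2, a receptor of short-chain fatty acids (0.28), and Plekha1 (0.30). Nearest to Fcer1g were Bank1, a scaffold of B cell receptor signalling (0.051), Pax6, a transcription factor (0.15), and Cplane2, a ciliogenesis gene (0.15). Nearest to Tyrobp were Gpn3 (0.028), Chpt1, a phospholipid synthesis enzyme (0.043), and the kinase Tec (0.045).

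The gene nearest to Cd3g was Il6, the cytokine interleukin-6, at a distance of 1.57, followed by P2ry10, a lysophospholipid receptor (1.59), and Mreg (1.68). The distances are not scaled to the size of a gene's differences, and no gene had a wider TS1 gap than Cd3g. Its distances are therefore not comparable with those of genes that differed less, such as Fcer1g and Tyrobp. Il6 read 10.48 and 10.57 in TS2 and 8.51 and 5.34 in TS1 A and B. It shared the bright TS1 A and the dimmer TS1 B with Cd3g, but its TS1 A array lay below both TS2 arrays. These distances rest on 4 arrays and describe only those.

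Markers of other cell types differed in both directions. Of 16 measured mast cell and basophil markers, 4 were lower and 0 higher in TS2 by limma (25% called, beside 13.5% of all genes and 8.45% lower). Among them were Gata2 (-4.65, adjusted p = 0.000411) and Kit (-1.90, adjusted p = 0.00153), in the direction of Fcer1g. The median difference of the 16 markers was -0.067, against 0.013 over all genes. Their summed intensity was 21243 and 32115 on the TS2 arrays and 24936 and 26935 on the TS1 arrays. The TS2 duplicates differed here: 5 of the 16, the proteases Mcpt1, Mcpt2, Mcpt4, Mcpt8 and Cma1, named after their values were seen, were at least 4-fold brighter on TS2 B than on TS2 A. For Mcpt1, Mcpt2, Mcpt4 and Mcpt8 both TS2 arrays lay above both TS1 arrays, opposite to Fcer1g. These differed by 5.20, 4.25, 2.96 and 4.61, and none was called (adjusted p between 0.0773 and 0.158). Cma1 differed by 1.87, and its arrays overlapped. Without TS2 A, 10 of the 16 were called, 5 in each direction. Fcer1g differed by 0.036 between TS2 A and TS2 B, and without TS2 A it differed by -1.37 between the lines. The part of these markers in the results for Fcer1g and Tyrobp was not tested.

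Of 13 natural killer cell markers, 6 were higher and 1 was lower in TS2 (53.8% called, beside 13.5% of all genes). The lower one was Eomes, a T-box factor (-2.88, adjusted p = 0.0017), and those higher included Itga2, an integrin chain (3.19, adjusted p = 0.000718), and Cd244a (2.70, adjusted p = 0.0256). Cd244a missed the threshold when TS2 A (adjusted p = 0.113) or TS2 B (adjusted p = 0.0973) was dropped. Their summed intensity was 19925 and 22077 in TS2 and 13077 and 6304 in TS1 A and B. The gap between the TS1 sums came from Gzmb, a granzyme gene named after its values were seen and not called, which read 12.55 and 13.49 in TS2 and 13.22 and 11.30 in TS1. Without it the sums of the other 12 markers were 13935 and 10575 in TS2 and 3521 and 3780 in TS1. Of these, the brightest on every array was Gzma, also named after its values were seen, and the sums are weighted towards it. Klrb1c, another of the 13, was dim in both lines. Of 15 T cell markers, 3 were higher in TS2 and 0 lower by limma (20% called, beside 13.5% of all genes): Il7r (4.92, adjusted p = 0.00264), Ubash3a and Cd7 (1.81, adjusted p = 0.0483). Their summed intensity was 4429 and 2982 in TS2 and 1262 and 975 in TS1. This sum is weighted towards the brightest markers, which in TS2 were the called ones. The median difference of the 15 was 0.17. The count was 1 without TS2 A, when the calls of Cd7 (adjusted p = 0.179) and Ubash3a were lost, and the call of Cd7 also ended without TS2 B (adjusted p = 0.161), under the outlier-robust prior (adjusted p = 0.0784) and with the replicate block (adjusted p = 0.0543).

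B cell and myeloid markers mostly lay below 6.5, a level near the median of all probe sets. Of 11 measured B cell markers, 10 lay below 6.5 on every array. Cr2, a complement receptor (-2.33, adjusted p = 0.000748), and Ebf1, a transcription factor (-1.17, adjusted p = 0.0135), were lower in TS2 (18.2% of the 11 called, beside 13.5% of all genes). Ebf1 was not called without TS1 B (adjusted p = 0.0561). The summed intensity of the 11 was 429 and 446 in TS2 and 572 and 565 in TS1, where Cr2 was the brightest. Their median difference was 0.02. Of 15 myeloid markers, 13 lay below 6.5 on every array, Fcgr3 was higher and Cd68 lower in TS2 (-0.64, adjusted p = 0.0261), which makes 13.3% called beside 13.5% of all genes. The Cd68 call was lost without TS2 A, TS2 B or TS1 A. The summed intensity was 2220 and 1892 in TS2 and 1620 and 1371 in TS1. Such a sum is weighted towards the brightest marker, here Fcgr3. The mean log2 intensity of the 15 was 5.71 and 5.72 in TS2 and 5.74 and 5.74 in TS1. It did not share the direction of the sum. Spi1, the defining transcription factor of myeloid cells, was dim, at 4.85 and 4.94 in TS2 and 4.78 and 4.78 in TS1.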

How the data were processed

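Total RNA was labelled with Ambion and Affymetrix whole-transcript kits, per the labels' protocols. The authors summarised the arrays with RMA in Affymetrix Expression Console, per the submitters' processing notes, which state no version. The deposited values are linear intensities for 35556 probe sets, from 5.98 to 23157, with column medians of 88.6 (TS2 A), 89.9 (TS2 B), 89.0 (TS1 A) and 92.5 (TS1 B). RMA removes a shift shared by most probe sets of an array. Log2 was taken with no pseudocount, since 0 values were missing or non-positive.

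Of the probe sets, 21789 named 1 gene in the platform annotation, 1621 several and 12146 none. Symbols were updated through RefSeq's GRCm38.p6 table, in which 21698 were found. The brightest probe set by mean stood for each gene. All 4 arrays entered 1 fit with the line as factor, with limma 3.58.1 in R 4.3.3, which was tested on simulated data. Scan day and slide are not analysed here, so batches could not be examined. The members, the 10 lists and the motifs were chosen with earlier results of these data known. Named genes were the members, up to 4 called genes a list with the largest differences, 15 fixed genes, the 3 nearest neighbours on each side, and the 3 most alike genes. The correlation of B minus A between the lines over all genes was -0.029. With 1 such difference per line, this cannot show whether arrays of the same letter were handled together. Alternatives were a replicate block, each array left out, other prior variances, centring, renewed quantile normalization, a filter on dim probe sets, averaged probe sets and unmoderated variances. Where an array was left out, the lone array of its line was taken to vary as much as the other line's.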

Additional observations from a re-analysis of the deposited data

How the results depend on the processing

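Cd3e, Cd247 and Fcer1g kept their direction and their call under the replicate block, each array left out, both other prior variances, centring, renewed quantile normalization, the filter on dim probe sets and averaged probe sets. Hcst and Ms4a2 passed under none of these. Over the arrays left out, Cd3e ran from 6.11 to 6.31, Cd247 from 2.76 to 2.90, Fcer1g from -1.60 to -1.18, Tyrobp from -0.89 to -0.60, Cd3g from 0.67 to 5.12 and Cd3d from -0.061 to 0.23. Tyrobp lost its call without TS1 A, TS1 B or TS2 B, where fewer arrays were fitted, and Cd3g passed without TS1 A. The filter removed Cd3d and Ms4a2. Of the 8 members, 3 to 4 were called with an array left out, 4 with the replicate block and 0 with limma's fit without moderation (4 at an unadjusted p under 0.05). Over all genes the count of 2691 was 1666 with the replicate block, 979 to 2198 with an array left out, and 0 without moderation (4156 unadjusted). Centring moved the median difference of all genes by 0.015 and renewed quantile normalization by -0.011.

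With an array left out, 2 to 5 partner receptors were called, 5 to 8 kinases and phosphatases, 6 to 10 adaptors and effectors, 1 to 3 T cell markers, 4 to 10 mast cell markers, 1 to 2 B cell markers and 0 to 1 myeloid markers. T cell markers called fell to 1 with the replicate block and 1 with a robust prior, and B cell markers to 1 with the dim filter. That filter removed Ebf1, which read 4.39 and 4.76 in TS2 and 5.64 and 5.85 in TS1, with a mean below the cut. Why the other counts changed was not tested. The block changed no other count of a list by over 1.5 times. Signal over background was not measured, so differences of dim genes are limited. The array number limits precision.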
